A study of Arabidopsis thaliana with 8 samples.

Results

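The 6 PACLOBUTRAZOL RESISTANCE genes of Arabidopsis thaliana (PRE1 to PRE6), with IBH1 and HBI1, were followed as a set of growth-controlling basic helix-loop-helix (bHLH) genes. They were taken by their locus codes, and all 8 were found among 27416 gene models. The RNA came from seedlings of ecotype Col, aged 4.5 days, on medium with 1% sucrose. Seeds of all groups were first given white light for 12 h and then 21 h more to start germination, for which the labels name no light, and then 4 days of darkness at 22 °C. Wild-type seedlings that stayed in darkness (WT dark) were compared with wild-type (WT red), phyB mutant (phyB red) and phyAB mutant (phyAB red) seedlings that received 1 h of red light (50 µmol per m2 and s). Each of the 4 groups held 2 libraries, and the libraries held 15926547 to 22116924 reads. The labels do not describe the mutant alleles, and mutant seedlings kept in darkness were not analysed here. An effect of a mutation on the light response and a difference already present in darkness therefore cannot be told apart.

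PRE proteins are small helix-loop-helix proteins that lack the basic region with which other bHLH factors contact DNA. They act by pairing: a PRE protein binds IBH1, an inhibitor of cell elongation, and so releases HBI1, a DNA-binding activator of elongation that IBH1 otherwise holds inactive. Brassinosteroid, gibberellin and auxin raise PRE transcripts in elongating seedlings, through factors that include BZR1 and PIF4. Red light converts phytochromes to their active form, which removes PIF proteins and slows the elongation of the dark-grown hypocotyl.

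The phytochrome transcripts and tissue markers were read first. PHYA stood at 215 to 217 RPKM (reads scaled by gene model length and library total, as the authors deposited them) in WT dark, 118 to 120.1 in WT red, 185 in phyB red and 32.9 to 33.0 in phyAB red. PHYB stood at 20.1 to 20.3, 23.3 to 23.5, 15.7 to 16.2 and 12.9 to 13.5 RPKM in the same order, so the mutants still gave reads of both genes. Of 4 flower markers, AG had 0 reads in every library, and the summed level was at most 0.998 RPKM in the WT and phyAB libraries and 2.06 to 2.10 RPKM in phyB red. Among these, the petal and stamen gene PI had 1 to 15 reads in the other libraries and 21 and 42 in phyB red. The summed level of 4 root markers, which PYK10 dominates, was 7743 to 7750 RPKM in WT dark, 10072 to 10074 in WT red, 6416 to 6431 in phyB red and 9182 to 9234 in phyAB red. The other root markers did not follow PYK10: PIN2 had 8.73 to 9.98 RPKM in WT dark and 6.78 to 6.97 in WT red, and CASP1 had 201 to 202 RPKM in WT red and 230.5 to 237 in phyB red. The summed level of 4 seed storage markers was at most 0.961 RPKM in WT and phyB libraries and 31.9 to 32.6 RPKM in phyAB red. The 4 shoot and etiolated-seedling markers were all detected, and their sum, carried by RBCS1A, was 639.9 to 650.03 RPKM in WT dark, 1369.9 to 1379.96 in WT red, 1543 to 1563 in phyB red and 1095 to 1096 in phyAB red. PORA, a chlorophyll synthesis gene of dark-grown seedlings, ran differently, at 93.0 to 97.4 RPKM in WT dark, 12.4 to 14.4 in WT red, 11.7 to 12.0 in phyB red and 269 in both phyAB red libraries. The part of these differences in the results below was not tested, and in bulk seedling RNA fewer cells of a type and less RNA per cell cannot be told apart.

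The PRE genes are related in sequence to unequal degrees. The coding sequences of the most alike pair, PRE1 (AT5G39860, chromosome 5) and PRE5 (AT3G28857, chromosome 3), are shown with the differing bases in capitals. They bear on whether reads of family members could be told apart. Each runs 5′ to 3′ from the start codon to the stop codon, from RefSeq's TAIR10.1 assembly.
PRE1: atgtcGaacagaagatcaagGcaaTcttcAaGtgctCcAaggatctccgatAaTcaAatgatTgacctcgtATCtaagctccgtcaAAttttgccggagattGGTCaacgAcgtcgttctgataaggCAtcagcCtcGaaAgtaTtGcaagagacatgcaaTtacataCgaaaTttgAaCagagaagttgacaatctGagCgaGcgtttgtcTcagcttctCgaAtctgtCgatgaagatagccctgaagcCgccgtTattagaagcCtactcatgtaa
PRE5: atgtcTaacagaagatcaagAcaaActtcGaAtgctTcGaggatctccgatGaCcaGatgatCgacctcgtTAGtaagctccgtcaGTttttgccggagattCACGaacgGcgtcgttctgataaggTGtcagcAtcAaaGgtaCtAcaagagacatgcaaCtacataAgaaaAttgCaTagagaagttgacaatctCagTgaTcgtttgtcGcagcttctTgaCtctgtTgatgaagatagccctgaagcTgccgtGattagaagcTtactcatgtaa
The sequences had the same length, 279 bases, and differed at 43 of them. Over the 15 pairs of PRE genes, coding identity ran from 62.5% (PRE2 and PRE3) to 84.6% (PRE1 and PRE5). The longest exact run shared by any pair of whole transcripts was 22 bases, in PRE2 and PRE6. No annotated gene overlaps any of the 8 genes. The sources used here do not give the read length, or how reads matching several genes were counted.

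The genes lie apart in the genome. In TAIR10.1, PRE6 (AT1G26945, also KIDARI) lies on chromosome 1 at 9351160 to 9352833 and PRE3 (AT1G74500, also TMO7) at 27997919 to 27998821. IBH1 (AT2G43060) lies on chromosome 2 at 17909007 to 17910210 and HBI1 (AT2G18300) at 7952404 to 7954785. PRE5 lies on chromosome 3 at 10855623 to 10856787 and PRE4 (AT3G47710, also BNQ3) at 17590544 to 17591670. PRE1 lies on chromosome 5 at 15957368 to 15958559 and PRE2 (AT5G15160, also BNQ2) at 4921243 to 4922812. Each PRE gene has 2 exons, IBH1 has 1, and the HBI1 transcript nearest in length to the deposited model has 7.

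Levels per length spanned a wide range. Averaged over the 8 libraries, IBH1 (86.1 RPKM) and PRE6 (85.2 RPKM) stood highest and above 94.8% and 94.7% of all gene models. HBI1 followed at 48.5 RPKM, PRE1 at 19.9, PRE5 at 7.17, PRE3 at 4.85, PRE2 at 2.00 and PRE4 at 0.449. The length behind the RPKM of PRE4 was 279 bases, the coding part alone, whereas the lengths of the other 7 (558 to 1492 bases) exceeded their coding parts. With 0 to 6 reads per library, PRE4 was not tested. The other 7 had enough reads, 6 of them in every group and PRE2 in every group except WT dark.

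**Figure D1:**
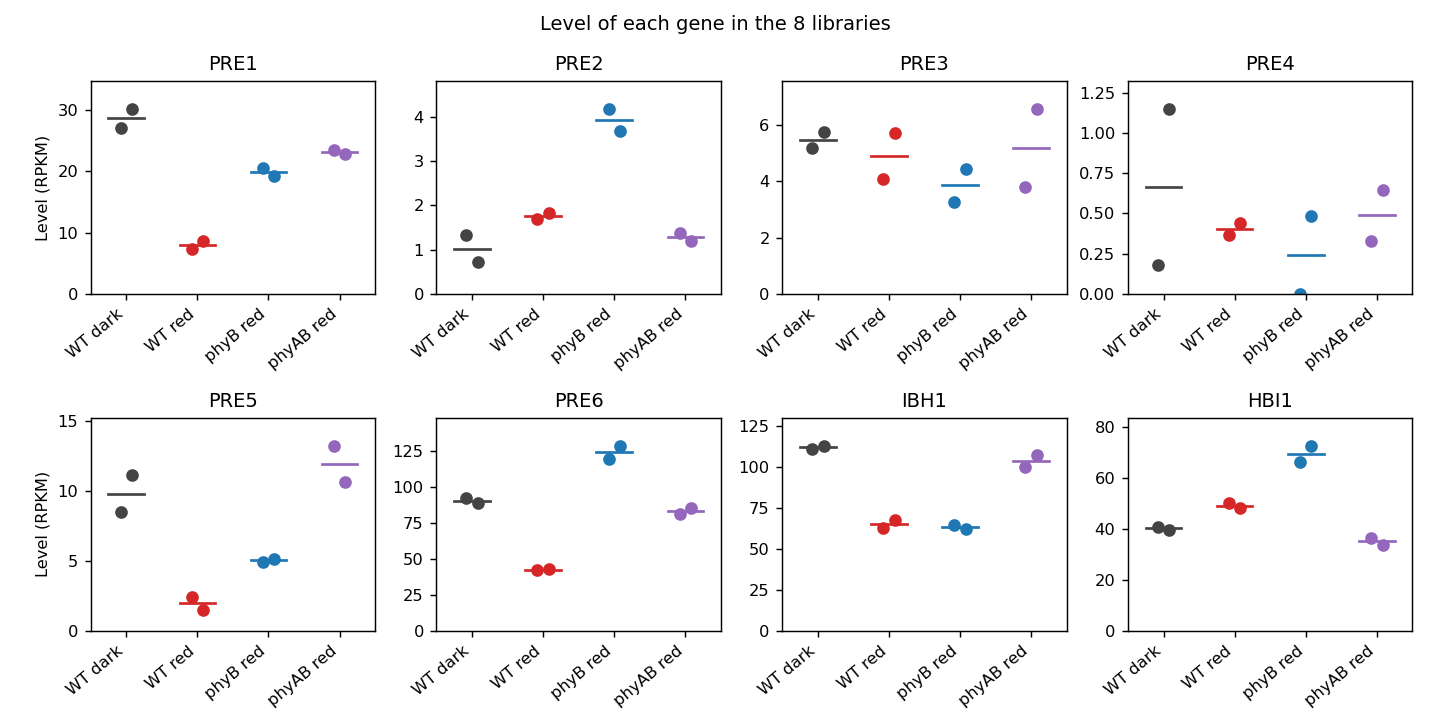
Level of each of the 8 genes in RPKM (vertical axes, each starting at 0) in the 4 groups, with 1 point per library and a line at the mean of 2. PRE1, PRE5, PRE6 and IBH1 were low in WT red, IBH1 was also low in phyB red, and PRE2, PRE6 and HBI1 were highest in phyB red.

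In wild type, 3 PRE genes and IBH1 were lower and HBI1 was higher after 1 h of red light than in darkness. Differences were tested on the reads of all 20716 genes with enough of them, with edgeR's quasi-likelihood test and Benjamini-Hochberg adjustment, at an adjusted p under 0.05. Of the 7 genes tested, 4 were lower and 1 was higher, against 22.7% and 24.1% of all genes tested (46.8% in either direction). The median log2 fold change of the 5 tested PRE genes was -1.06, and that of all genes was 0.00. PRE5 had the largest fall, 4.81-fold, and PRE1 fell 3.53-fold, PRE6 2.09-fold and IBH1 1.69-fold. HBI1 rose 1.24-fold, which did not pass against a 1.5-fold change. These are values of the fit on counts, with n = 2 libraries per group here and below. Whether these are separate cultures is not stated, so p-values here and below cover only the spread of these samples, possibly technical. The coefficient of variation beyond counting error, common to all genes tested, was 1.59% in the fit. As the 8 genes were chosen with earlier results of these data known, their counts beside those of all genes are a description.

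The phyB red libraries held more transcript of 4 PRE genes and HBI1 than WT red, and IBH1 was not distinguished. Of 7 genes, 5 were higher and 0 lower, against 13.1% and 14.0% of all genes (27.1% in either direction), and the median log2 fold change of the 5 PRE genes was 1.27 against 0.00 for all genes. PRE6 was 2.85-fold, PRE5 2.46-fold, PRE1 2.41-fold, PRE2 2.16-fold and HBI1 1.38-fold higher. Tested against a 1.5-fold change instead of none, 3 genes (PRE1, PRE5 and PRE6) stayed higher. PRE2 did not pass with DESeq2, without WT red replicate 1 or without phyB red replicate 1 either.

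In phyAB red, 3 PRE genes and IBH1 were higher than in WT red and HBI1 was lower. Of 7 genes, 4 were higher and 1 lower, against 22.3% and 22.7% of all genes (45.0% in either direction), and the median of the 5 PRE genes was 0.90 (log2) against 0.00. PRE5 was 5.78-fold, PRE1 2.79-fold, PRE6 1.87-fold and IBH1 1.52-fold higher, and HBI1 was 1.46-fold lower. Against a 1.5-fold change, PRE1, PRE5 and PRE6 remained, 3 genes in all. This comparison, that of phyB red and that of red light in wild type share the WT red libraries, so their opposite signs are not independent.

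Set against each other, the mutants differed in 5 of the 7 genes. In phyAB red, PRE5 (2.34-fold) and IBH1 (1.61-fold) were higher than in phyB red, and PRE2 (3.03-fold), HBI1 (2.01-fold) and PRE6 (1.53-fold) were lower. The 2 higher and 3 lower genes stand against 26.0% and 24.1% of all genes (50.1% in either direction). PRE6 did not pass against a 1.5-fold change.

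Relative to WT dark, phyB red had 3 genes higher and 3 lower, against 27.4% and 27.1% of all genes (54.5% in either direction). PRE2 (3.73-fold), HBI1 (1.72-fold) and PRE6 (1.36-fold) were higher, and PRE5 (1.95-fold), IBH1 (1.79-fold) and PRE1 (1.46-fold) were lower, of which PRE6 and PRE1 did not pass against a 1.5-fold change. In phyAB red, 0 genes were higher and 4 were lower than in WT dark, against 27.2% and 21.0% of all genes (48.2% in either direction). These changes were small, at most 1.27-fold: PRE1 (1.27-fold), HBI1 (1.17-fold), PRE6 (1.12-fold) and IBH1 (1.11-fold) were lower. None of the 4 passed against a 1.5-fold change, and without phyAB red replicate 1 only PRE1 and HBI1, 2 of the 4, stayed lower. The groups of these last comparisons differ in genotype and in light at once.

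**Figure D2:**
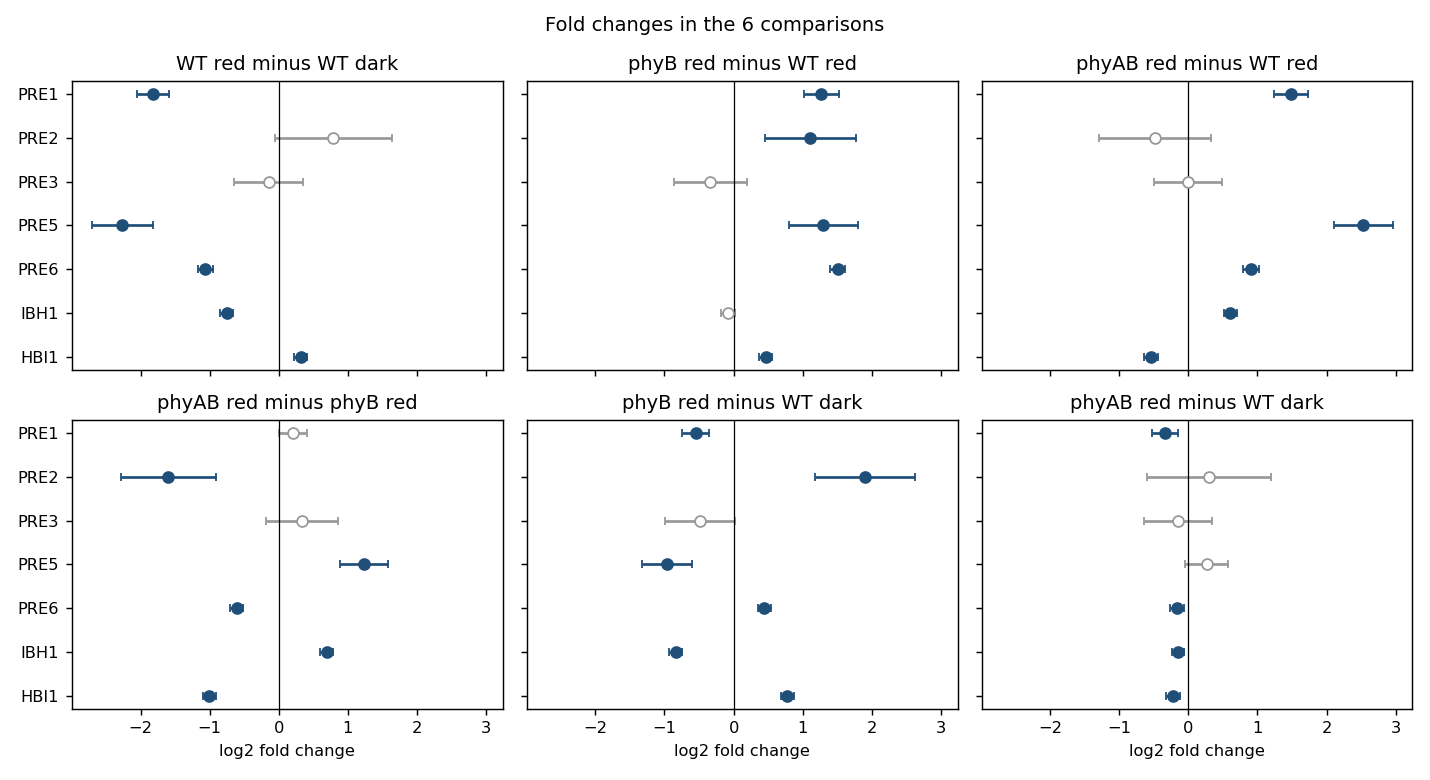
Fold changes of the 7 tested genes in the 6 comparisons (log2 fold change, horizontal axis), with 95% intervals of the fit. Filled points passed the test and open points did not. PRE1, PRE5 and PRE6 lie below 0 for WT red minus WT dark and above 0 for each mutant minus WT red. These comparisons share the WT red libraries. For IBH1 the point of phyB red minus WT red is open at -0.09 and that of phyAB red minus WT red is filled at 0.61.

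PRE6, a PRE protein that also pairs with the light-signalling factor HFR1, gave most of the PRE reads. The WT dark libraries held 92.5 and 88.7 RPKM, those of WT red 42.2 and 43.1, those of phyB red 119.7 and 129, and those of phyAB red 81.1 and 85.4. No groups overlapped, and the order was phyB red, WT dark, phyAB red and WT red. The log2 fold change was -1.06 ± 0.06 (SE of the fit) for WT red minus WT dark (adjusted p = 2.75e-29 in edgeR) and 1.51 ± 0.05 for phyB red minus WT red (adjusted p = 2.04e-40). PRE6 in phyB red thus stood above its dark wild-type level (0.45 ± 0.05, adjusted p = 3.63e-14). Between the neighbours phyAB red and WT dark the difference was -0.16 ± 0.05 (adjusted p = 0.00438), and it did not pass without phyAB red replicate 1 (adjusted p = 0.132).

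PRE1, which promotes elongation downstream of gibberellin and brassinosteroid, had another order. WT dark libraries had 27.0 and 30.2 RPKM of it, WT red 7.34 and 8.63, phyB red 20.5 and 19.2, and phyAB red 23.5 and 22.8. The groups did not overlap, with both WT red libraries far below the rest. The response to red light was -1.82 ± 0.12 (adjusted p = 1.53e-24), and the differences from WT red were 1.27 ± 0.13 in phyB red (adjusted p = 1.98e-14) and 1.48 ± 0.12 in phyAB red (adjusted p = 1.49e-18). Both mutants stayed below WT dark (-0.55 ± 0.10, adjusted p = 9.18e-07, and -0.34 ± 0.09, adjusted p = 0.00166). The difference between the mutants did not pass (0.21 ± 0.10, 95% interval 0.01 to 0.41, adjusted p = 0.0757 over all genes).

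PRE5, the copy most like PRE1 in sequence, reached 8.44 and 11.1 RPKM with WT dark, 2.40 and 1.49 with WT red, 4.93 and 5.14 with phyB red, and 13.2 and 10.6 with phyAB red. WT red was lowest, phyB red intermediate, and the WT dark and phyAB red libraries overlapped. PRE5 changed by -2.27 ± 0.22 in red light (adjusted p = 5.20e-15), and was higher than in WT red by 1.30 ± 0.25 in phyB red (adjusted p = 2.15e-05) and by 2.53 ± 0.22 in phyAB red (adjusted p = 8.38e-18). PRE5 also differed between the mutants (1.23 ± 0.18, adjusted p = 4.23e-09). In phyAB red it was not distinguished from WT dark (0.26 ± 0.15, 95% interval -0.04 to 0.57, adjusted p = 0.157). The WT red libraries gave 35 and 18 reads of this gene, which sets the precision.

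PRE2, one of the BANQUO genes studied in flowers, was a low transcript with its highest level in phyB red. WT dark gave 16 and 8 reads (1.33 and 0.711 RPKM), WT red 20 and 18 (1.68 and 1.83), phyB red 40 and 49 (4.18 and 3.69), and phyAB red 18 and 12 (1.38 and 1.20). Both phyB red libraries lay above all others. The phyB red level exceeded that of WT red (1.11 ± 0.33, adjusted p = 0.00679), WT dark (1.90 ± 0.36, adjusted p = 4.98e-06) and phyAB red (phyAB red minus phyB red at -1.60 ± 0.35, adjusted p = 5.60e-05). The difference from WT red did not pass with DESeq2 (adjusted p = 0.0741), nor in edgeR without WT red replicate 1 (0.0826) or without phyB red replicate 1 (0.0518). The other 3 groups were not distinguished, with WT red minus WT dark at 0.79 ± 0.43 (95% interval -0.06 to 1.64, adjusted p = 0.125). PI, which in flowers represses BANQUO genes together with AP3, had its highest reads in phyB red too, as given above, and its part in this result was not tested. The BANQUO gene PRE4 was not highest there, with 0 and 3 reads in phyB red and 1 and 6 in WT dark, too few to compare. AP3 had 0 to 4 reads in every library.

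PRE3, a mobile target of the auxin response factor MONOPTEROS in the embryo, passed in no comparison. The libraries gave 5.19 and 5.75 RPKM for WT dark, 4.08 and 5.71 for WT red, 3.26 and 4.46 for phyB red, and 3.80 and 6.58 for phyAB red. The libraries of phyAB red lay farther apart than the group means. For red light the difference was -0.15 ± 0.25 (95% interval -0.65 to 0.35, adjusted p = 0.67), and that of phyB red from WT red was -0.34 ± 0.27 (-0.87 to 0.19, adjusted p = 0.389). Without phyAB red replicate 1, phyAB red was above phyB red (0.72, adjusted p = 0.0467 in edgeR), with 1 phyAB red library left. PRE4, another BANQUO gene, had 1 and 6 reads with WT dark, 2 and 2 with WT red, 0 and 3 with phyB red and 2 and 3 with phyAB red, at which depth no difference was detectable.

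IBH1, the inhibitor that PRE proteins bind, reached 111 and 113 RPKM with WT dark, 63.0 and 67.5 with WT red, 64.3 and 62.3 with phyB red, and 100.02 and 108 with phyAB red. The libraries formed a high pair of groups and a low pair, and WT red and phyB red overlapped in RPKM, though not in reads scaled by TMM. In wild type, IBH1 was lower after red light than in darkness (-0.76 ± 0.05, adjusted p = 3.08e-26 in edgeR). The phyB red level was not distinguished from WT red (-0.09 ± 0.05, 95% interval -0.19 to 0.02, adjusted p = 0.226) and was below WT dark (-0.84 ± 0.05, adjusted p = 2.54e-29). In phyAB red, IBH1 was higher than in WT red (0.61 ± 0.05, adjusted p = 3.28e-20) and than in phyB red (0.69 ± 0.05, adjusted p = 1.30e-23). It was slightly below WT dark (-0.15 ± 0.04, adjusted p = 0.00161), but not without phyAB red replicate 1 (adjusted p = 0.168).

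HBI1, the activator at the end of this chain, was the 1 tested gene whose rise in wild type passed the test. The rise estimated for PRE2 (0.79 ± 0.43) was larger but did not pass (adjusted p = 0.125 in edgeR). WT dark libraries had 40.9 and 39.6 RPKM of it, WT red 50.1 and 48.1, phyB red 66.2 and 72.8, and phyAB red 36.6 and 33.6. No groups overlapped, and all 6 comparisons passed. HBI1 rose by 0.32 ± 0.05 in red light (adjusted p = 4.88e-08) and phyB red exceeded WT red by 0.46 ± 0.04 (adjusted p = 8.36e-15). In phyAB red it was lower than in WT red (-0.54 ± 0.05, adjusted p = 4.61e-16) and than in WT dark (-0.23 ± 0.05, adjusted p = 0.000123). Of the 6 differences, that between the mutants was the largest (-1.01 ± 0.05 for phyAB red minus phyB red, adjusted p = 3.53e-33).

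The levels were also added up per library, as a description on the RPKM scale. Summed over PRE1 to PRE6, they came to 135 and 138 RPKM with WT dark, 58.0 and 61.2 with WT red, 152 and 162 with phyB red, and 123 and 127 with phyAB red. PRE6 made up 64.5% to 68.7% of this sum in WT dark, 70.4% to 72.7% in WT red, 78.5% to 79.7% in phyB red and 65.8% to 67.2% in phyAB red. PRE1 made up 20.1% to 21.9% in WT dark and 11.8% to 14.1% in WT red and phyB red. The sum in relation to IBH1 was 1.22 ± 0.0014 for WT dark (SD, n = 2), 0.914 ± 0.0096 for WT red, 2.49 ± 0.164 for phyB red and 1.21 ± 0.0352 for phyAB red. HBI1 in relation to IBH1 was 0.359 ± 0.0131, 0.754 ± 0.0587, 1.10 ± 0.0989 and 0.339 ± 0.0377 in the same order. In phyB red both ratios stood above those of every other library, and the phyAB red and WT dark libraries overlapped in both. These are ratios of transcripts, and protein was not measured.

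**Figure D3:**
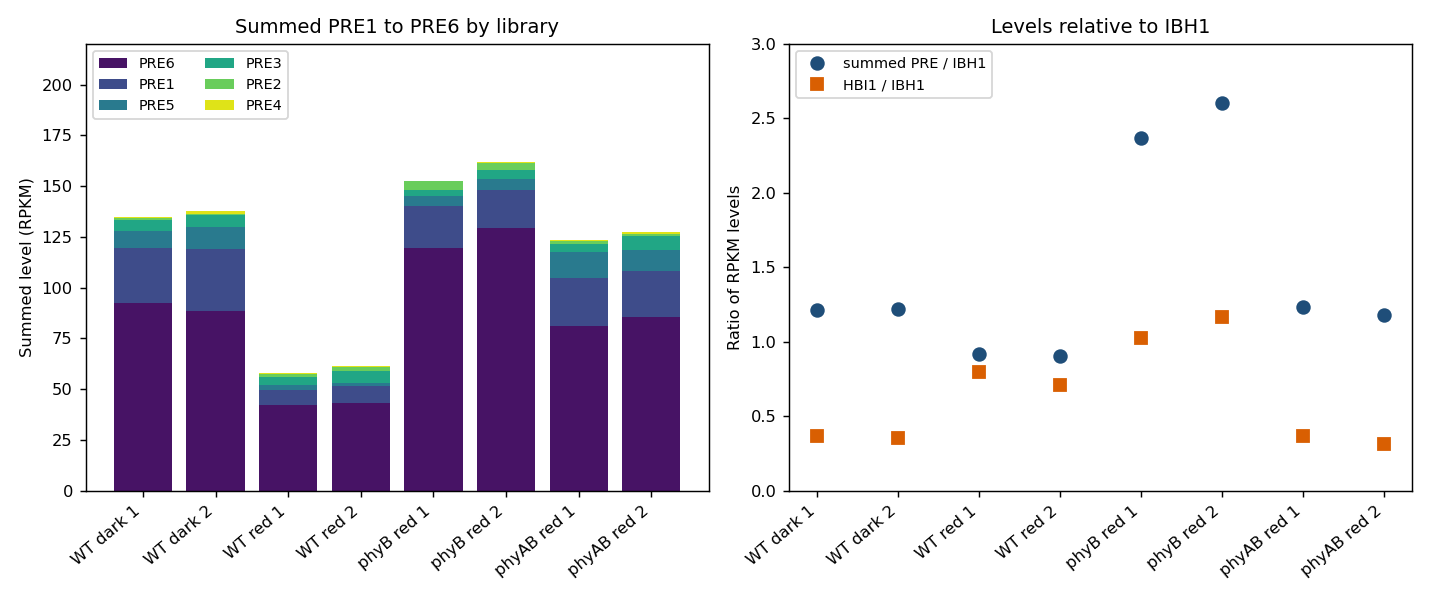
Left, stacked RPKM levels of PRE1 to PRE6 in each of the 8 libraries; right, the summed PRE level and the HBI1 level divided by the IBH1 level in the same libraries. The summed PRE to IBH1 ratio was 2.37 and 2.60 in the phyB red libraries and at most 1.23 in the others.

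Other bHLH genes that pair with these proteins or resemble them were read as a list of 18, of which 17 were tested. CES had too few reads. The list was chosen with earlier results of these data known, so its counts are a description. In WT red minus WT dark, 3 were higher and 12 lower (median log2 -0.55), against 24.1% and 22.7% of all genes. In phyB red minus WT red, 11 were higher and 0 lower (median 0.40), against 13.1% and 14.0% of all genes. In phyAB red minus WT red 10 were higher and 4 lower (median 0.36), against 22.3% and 22.7%. The medians over all genes were 0.00 in each. These comparisons share the WT red libraries. IBL1, a relative of IBH1, fell from 28.9 to 11.04 CPM (counts scaled to library size by TMM) in red light (-1.38 ± 0.09, adjusted p = 6.68e-25). IBL1 was higher than in WT red in phyB red (0.98 ± 0.09, adjusted p = 2.55e-15) and phyAB red (1.29 ± 0.09, adjusted p = 1.16e-22). PAR1 and PAR2, inhibitors without DNA binding that act in shade, fell in red light (-1.98 ± 0.11 and -1.19 ± 0.08), and PAR2 was higher than in WT red by 0.41 ± 0.09 in phyB red and 0.48 ± 0.09 in phyAB red. PAR1 was higher than in WT red by 1.89 ± 0.12 in phyB red and 1.36 ± 0.12 in phyAB red. AIF1, which interacts with PRE3, rose in red light from 7.17 to 21.0 CPM (1.56 ± 0.11, adjusted p = 6.12e-23), and was lower in phyAB red than in WT red (-0.68 ± 0.09).

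**Figure D4:**
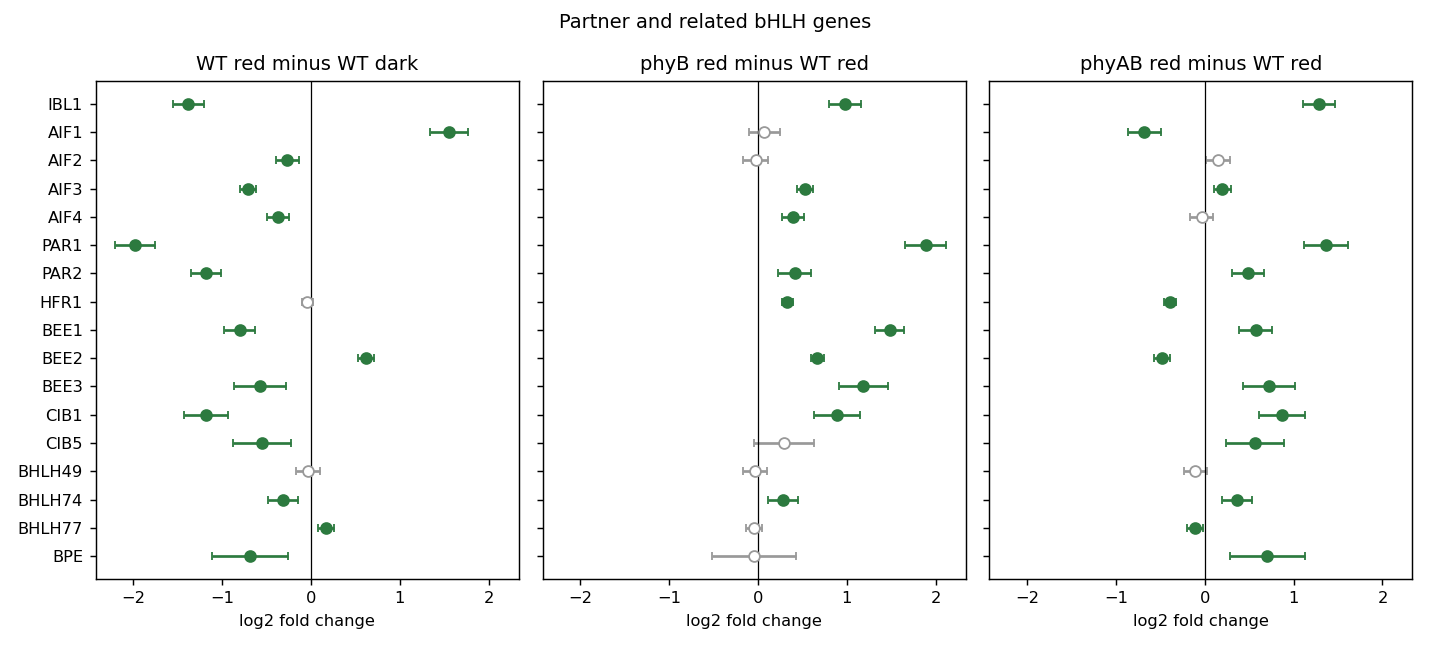
Fold changes of the 17 tested partner and related bHLH genes (log2 fold change, with 95% intervals of the fit) in 3 comparisons. Filled points passed the test. In phyB red minus WT red 11 genes lie above 0 as filled points and 0 below. The list was chosen with earlier results of these data known.

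Genes that act before and after this set were counted in the same way, in lists also chosen with earlier results of these data known. Of 12 upstream regulators, 5 were higher and 5 lower in red light (median log2 -0.06), against 24.1% and 22.7% of all genes. In phyB red minus WT red, 3 were higher and 2 lower (median 0.07), against 13.1% and 14.0%, and in phyAB red minus WT red 4 and 5 (median -0.05), against 22.3% and 22.7%. The transcript of PIF4, an activator of PRE genes, rose from 33.9 to 83.7 CPM in red light (1.31 ± 0.05, adjusted p = 7.00e-38 in edgeR). PRE1, PRE5 and PRE6 fell, PIF protein was not measured, and a link between the PIF4 and PRE changes was not tested. PIF5 and PIF7, of the same family, also rose (1.33 ± 0.06 and 3.03 ± 0.19) and were lower in phyAB red than in WT red (-1.16 ± 0.06 and -1.61 ± 0.16). PIF1 did likewise (0.72 ± 0.06 in red light and -0.36 ± 0.06 for phyAB red minus WT red). PIF3 went the other way, with -0.32 ± 0.06 in red light and 0.96 ± 0.06 for phyAB red minus WT red. PIF4 stood at 81.2 CPM in phyB red, not distinguished from WT red (-0.05 ± 0.04, adjusted p = 0.476 in edgeR), and at 37.2 CPM in phyAB red. Against WT red, PIF5 (0.16 ± 0.05) and PIF3 (0.31 ± 0.06) were higher in phyB red. PIF7 was lower there (-0.43 ± 0.13), and PIF1 was not distinguished (0.06 ± 0.06). BZR1, the brassinosteroid factor, changed little (-0.29 ± 0.06 in red light, adjusted p = 9.66e-06) and passed in neither mutant against WT red. GAI, a repressor of gibberellin responses, fell in red light (-0.94 ± 0.07) and was higher than in WT red in phyB red (0.76 ± 0.07) and phyAB red (0.55 ± 0.07). Among 6 growth output genes, 1 was higher and 5 lower in red light (median log2 -0.39), 6 higher and 0 lower in phyB red minus WT red (median 0.47), and 3 higher and 2 lower in phyAB red minus WT red (median 0.08). The shares of all genes are those just given, 24.1% and 22.7%, 13.1% and 14.0%, and 22.3% and 22.7%. The auxin gene IAA19 fell from 167 to 54.0 CPM in red light and stood at 128 CPM in phyB red and 122 CPM in phyAB red. EXPA1, an expansin gene of wall loosening, rose from 35.8 to 211 CPM in red light and stood at 262 CPM in phyB red and 66.1 CPM in phyAB red. The expansin gene EXPA8 (-0.41 ± 0.04) and the auxin gene SAUR15 (-1.41 ± 0.23) fell in red light, and the phyB red level of SAUR15 was 5.44-fold that of WT red.

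The 3 genes that were highest in phyB red, PRE6, PRE2 and HBI1, are shown with the 300 bases before their annotated starts, because each window holds a match to a hexamer searched, in capitals. They were chosen after their values were seen. They run 5′ to 3′ toward the gene and come from RefSeq's TAIR10.1. PRE6 lies at chr1:9350860-9351159 on the plus strand, PRE2 at chr5:4922813-4923112 on the minus strand and HBI1 at chr2:7954786-7955085 on the minus strand.
PRE6: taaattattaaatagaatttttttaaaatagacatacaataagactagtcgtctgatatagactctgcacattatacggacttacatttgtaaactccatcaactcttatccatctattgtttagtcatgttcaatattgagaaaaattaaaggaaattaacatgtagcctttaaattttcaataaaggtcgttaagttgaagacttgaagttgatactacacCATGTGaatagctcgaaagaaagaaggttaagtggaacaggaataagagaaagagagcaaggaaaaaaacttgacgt
PRE2: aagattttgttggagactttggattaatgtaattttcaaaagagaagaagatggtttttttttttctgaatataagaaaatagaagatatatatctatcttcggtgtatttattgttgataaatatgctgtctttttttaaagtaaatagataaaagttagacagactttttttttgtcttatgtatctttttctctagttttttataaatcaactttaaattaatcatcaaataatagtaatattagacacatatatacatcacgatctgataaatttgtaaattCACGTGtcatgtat
HBI1: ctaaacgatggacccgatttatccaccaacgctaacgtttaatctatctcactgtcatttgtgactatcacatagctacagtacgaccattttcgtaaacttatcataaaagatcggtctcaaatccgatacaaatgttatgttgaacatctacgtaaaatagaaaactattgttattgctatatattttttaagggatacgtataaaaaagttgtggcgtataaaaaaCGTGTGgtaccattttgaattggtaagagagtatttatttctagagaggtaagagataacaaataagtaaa
The motifs searched, on both strands, were the G-box CACGTG and the PBE-box CACATG, which PIF proteins can bind, and the brassinosteroid response elements CGTGTG and CGTGCG, which BZR1 can bind. The match in PRE6 is a PBE-box, 77 to 72 bases before the start, that in PRE2 a G-box, 14 to 9 bases before, and that in HBI1 CGTGTG, 71 to 66 bases before. PRE4 also holds a PBE-box, and no match lies in the windows of PRE1, PRE3, PRE5 and IBH1. Over 27443 protein-coding genes, 7.09% of windows of this length hold the G-box, 13.1% the PBE-box, 6.11% CGTGTG and 1.78% CGTGCG. The share of windows holding any of these motifs was not computed. A match says only that these letters occur in the window.

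For each tested gene, the most similar patterns were sought among the 15460 genes whose mean reached 5 CPM, by the root mean square difference of log2 CPM from the gene's own mean over 8 libraries. The nearest to IBH1 was EXL2 (AT5G64260, difference 0.05), at 645, 392, 354 and 591 CPM in WT dark, WT red, phyB red and phyAB red, followed by PGL4 (AT5G24410, 0.05). PRE1 was most like AT5G62280 (0.08; 74.6, 20.3, 48.3 and 58.3 CPM) and BSK5 (AT5G59010, 0.09). PRE6 was most like P1R1 (AT5G57780, 0.12) and the auxin-responsive SAUR68 (AT1G29510, 0.13; 17.3, 8.41, 19.8 and 13.3 CPM). HBI1 was most like AT2G45180 (0.07; 1099, 1247, 1756 and 854 CPM) and ATCG00220 (0.07). For PRE5 the nearest were AT4G35720 and AT1G05835 (0.21 each), for PRE2 ATTPPA (0.22) and AT3G51150 (0.28), and for PRE3 AT3G14190 (0.17) and AT5G62900 (0.18). Among the 7 genes themselves, the nearest pairs were PRE3 with IBH1 (0.34), PRE1 with PRE6 (0.41), PRE2 with HBI1 (0.42) and PRE1 with PRE5 (0.48), and the farthest were PRE2 and PRE5 (1.47). The measure favours genes that vary little. PRE3, which passed in no comparison, deviated from its own mean by only 0.31 and IBH1 by 0.37, so their small distance does not show a shared pattern. The genes and pairs named here were chosen for likeness and were not tested.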

How the data were processed

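Each deposited file holds raw read counts and RPKM by gene model, per the file headers. From the deposited counts and RPKM, each gene listed here with reads (AG had none) gave 1 whole length over the libraries with reads of it, so the authors' RPKM are treated as counts scaled by model length and library total. The submitters' processing notes name TAIR10. Not given in the sources used here were the aligner, counter, annotation release and strand handling. Sequences and positions come from RefSeq's TAIR10.1.

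Counts were fitted in R 4.3.3 with edgeR 4.0.16 (filterByExpr with a minimum count of 10, TMM, 4 group means over all 8 libraries, quasi-likelihood F-test, Benjamini-Hochberg over 20716 genes). SEs are log2 fold changes divided by the root of F, without sign, and gave the 95% intervals. Those of the 7 tested members of the set were 1.01 to 1.33 times the counting error. Whether replicates were separate cultures is not stated, so the p-values cover only the spread of these samples, possibly technical. The fit was tested on simulated data. Alternatives were DESeq2 1.42.0, its size factors, no filter, a replicate block, only the groups compared, a 1.5-fold threshold, and each of the 8 libraries left out. Coding sequences were aligned with Biopython 1.88.

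The genes and lists were chosen with earlier results of these data known. Named from each of the other lists are the 4 genes with the largest change in WT red minus WT dark, with PIF4, BZR1 and IBL1. The remaining PIF genes of the list, PIF1 and PIF3, were added, and for the nearest patterns 2 genes each are named.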

Additional observations from a re-analysis of the deposited data

How the results depend on the processing

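In all, 42 differences (7 genes in 6 comparisons) were recomputed under 14 alternatives, and 0 of the 588 values reversed the direction of a call. Calls were nevertheless lost, 12 of them against a 1.5-fold change and 1 with DESeq2, and some calls changed when a library was left out. DESeq2 size factors, no filter on low counts and only the groups compared changed 0 calls of these genes. Against a 1.5-fold change, the genes called fell to 3 in phyB red minus WT red, 3 in phyAB red minus WT red and 0 in phyAB red minus WT dark. Over all genes, that threshold left 2296 for WT red minus WT dark, 379 for phyB red minus WT red, 1640 for phyAB red minus WT red, 2386 for phyAB red minus phyB red, 2720 for phyB red minus WT dark and 1729 for phyAB red minus WT dark, of 9696, 5608, 9312, 10380, 11300 and 9986. DESeq2 called 3652 genes for phyB red minus WT red. With a library left out, 2 to 4 of the genes were called in phyAB red minus WT dark.

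Same-numbered replicates did not deviate together (correlations of -0.02 to 0.01 across 15460 genes between groups). The SEs of the 7 tested members of the set were 1.01 to 1.33 times the counting error, which left them little other spread to correlate. This ratio was not computed for the 15460 genes. Over all genes tested, the common coefficient of variation beyond counting error was 1.59%. The correlations therefore cannot exclude that the numbers pair the samples. The fit with the replicate number as a block called the same number of these genes in each comparison (5, 5, 5, 5, 6 and 4, in the order above) and 9680 genes in all for WT red minus WT dark. Depth limits PRE2, PRE3 and PRE4, with 0 to 61 reads per library.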
